A study of Homo sapiens with 6 samples.

Results

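Promoter sites where SMAD4 was called in 786-O cells without an overlapping peak of DPF3a or p300 were described. A site was chosen by the peak calls of 3 chromatin immunoprecipitation sequencing (ChIP-seq) lists. Its SMAD4 peak overlapped no DPF3a or p300 peak by even 1 bp, and its summit lay within 1000 bp of a GENCODE 44 transcript start. Of 46367 SMAD4 peaks, 3353 met the rule (7.23%). They are 20.9% of the 16037 SMAD4 peaks with a promoter summit (Wilson 95% interval 20.3 to 21.5). The other 12684 promoter SMAD4 peaks touched DPF3a only (4282), p300 only (1587) or both (6815). A further 6340 SMAD4 peaks touched neither list and lay outside promoters. The sites that met the rule are called members below.

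786-O cells derive from a human clear cell renal cell carcinoma, a kidney cancer, and make very little DPF3 of their own. There were 3 groups of 2 libraries each. HA-DPF3a is the short isoform of the SWI/SNF subunit DPF3, overexpressed with an HA tag and pulled down through it after fixation with DSG followed by formaldehyde. SMAD4 and p300 are the cells' own proteins, pulled down from chromatin fixed with formaldehyde only, and the labels do not say whether those cells overexpressed DPF3a. Treatment with a TGF-β ligand is given for none of the samples. Each factor has 1 peak list made from both libraries, so no spread between replicates can be given, peaks are not replicates, and intervals cover counting error only. Fixation, antibody, cells and depth differ between lists and cannot be told apart from the factor. Coordinates are in hg38 and count from 1.

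SMAD4 is the partner that receptor-activated SMAD proteins share in TGF-β and BMP signalling. Its DNA-binding domain contacts short CAGAC boxes and GC-rich boxes, and it usually sits beside other DNA-binding factors such as AP-1, the FOS-JUN dimers. p300 is a histone acetyltransferase of active enhancers and promoters, and SWI/SNF, the complex to which DPF3 belongs, slides and evicts nucleosomes. CpG islands, stretches rich in the dinucleotide CG, cover most promoters of broadly used genes.

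Several members are given as examples, which are not typical of the class. Each sequence below runs from 50 bp before to 50 bp after a SMAD4 summit, read on the + strand of hg38. The first 5 hold a motif, in capitals. Each is among the members of highest fold enrichment with its motif whose window meets no annotated exon. LDLRAD4, a dampener of TGF-β receptor signalling, shows the SMAD palindrome GTCTAGAC. P2RX7, an ATP-gated channel gene, shows an AP-1 site. The lncRNA gene ENSG00000272438 shows a CTCF site, VPS18 an ETS site and EP400 a GC box. In the same order these motifs were at 0.149%, 2.59%, 0.686%, 1.31% and 8.98% of member summits.
LDLRAD4, chr18:13447757-13447857: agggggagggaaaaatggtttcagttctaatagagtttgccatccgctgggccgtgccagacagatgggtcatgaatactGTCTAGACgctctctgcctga
P2RX7, chr12:121133356-121133456: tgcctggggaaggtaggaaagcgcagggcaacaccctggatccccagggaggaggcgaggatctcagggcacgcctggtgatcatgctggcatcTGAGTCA
ENSG00000272438, chr1:904688-904788: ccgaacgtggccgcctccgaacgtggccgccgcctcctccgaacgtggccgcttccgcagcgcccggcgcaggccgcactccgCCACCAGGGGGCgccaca
VPS18, chr15:40894325-40894425: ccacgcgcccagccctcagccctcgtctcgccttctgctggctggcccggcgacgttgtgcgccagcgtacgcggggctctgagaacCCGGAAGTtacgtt
EP400, chr12:131949719-131949819: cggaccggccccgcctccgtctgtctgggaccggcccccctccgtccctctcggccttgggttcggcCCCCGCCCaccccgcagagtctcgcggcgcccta

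The next 5 lie at genes of the TGF-β target list, with SMAD boxes in capitals on either strand, namely the CAGAC box, the GC-rich box GGCGC or its GC-rich variant GGCCG. They are shown as examples from that list and are not its strongest members. At BHLHE40 the fold enrichment was 2.02, the lowest among the strongest members of the listed genes. At SMAD7, CDKN1A, ID1 and LTBP2 the window held GC-rich boxes and no CAGAC, whereas the window at BHLHE40 held 2 adjoining CAGAC boxes.
SMAD7, chr18:48948649-48948749: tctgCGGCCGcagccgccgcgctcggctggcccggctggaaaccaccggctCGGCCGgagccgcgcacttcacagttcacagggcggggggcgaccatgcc
CDKN1A, chr6:36678571-36678671: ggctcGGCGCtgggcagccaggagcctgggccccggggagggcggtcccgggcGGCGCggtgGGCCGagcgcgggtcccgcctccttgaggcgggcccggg
ID1, chr20:31604258-31604358: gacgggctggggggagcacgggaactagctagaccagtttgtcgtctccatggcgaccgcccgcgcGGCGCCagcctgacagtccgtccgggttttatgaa
LTBP2, chr14:74612732-74612832: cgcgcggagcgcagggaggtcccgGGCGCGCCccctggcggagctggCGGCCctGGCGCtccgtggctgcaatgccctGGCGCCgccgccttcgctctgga
BHLHE40, chr3:4980421-4980521: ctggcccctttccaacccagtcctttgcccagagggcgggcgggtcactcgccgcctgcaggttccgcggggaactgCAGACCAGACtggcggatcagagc

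The last 3 are among the members of highest fold enrichment. Capitals mark coding sequence, which fills most of the window at ERBB4 and is absent from the windows at NTRK2 and TRAC.
NTRK2, chr9:84860865-84860965: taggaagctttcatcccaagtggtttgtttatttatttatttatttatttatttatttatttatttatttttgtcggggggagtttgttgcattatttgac
ERBB4, chr2:211665316-211665416: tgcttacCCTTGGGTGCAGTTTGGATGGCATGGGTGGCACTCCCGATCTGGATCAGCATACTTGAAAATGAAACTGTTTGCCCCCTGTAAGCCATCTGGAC
TRAC, chr14:22547254-22547354: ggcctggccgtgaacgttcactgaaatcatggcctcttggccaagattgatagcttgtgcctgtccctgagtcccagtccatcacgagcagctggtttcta

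SMAD4 enrichment at members was lower than at the other promoter SMAD4 peaks, and members stood higher and wider than distal peaks without another factor. Fold enrichment, the ratio of summit pileup to local background, each plus 1, had a median of 5.23 at members (quartiles 4.19 and 6.73, highest 24.7). The median was 6.64 where DPF3a alone was touched, 6.98 where p300 alone was touched and 8.59 where both were touched. At distal peaks that touched neither list it was 4.83. The summit height, recovered in whole reads from the deposited values, had a median of 35 reads at members (quartiles 23 and 55, range 14 to 242), 68 reads at promoter peaks that touched another factor and 22 reads at the distal peaks. Median widths were 548 bp, 871.5 bp and 362 bp in the same order. Scores within 10 of the threshold, at 60 or less, were found in 346 members (10.3%) and in 1.37% of the promoter peaks that touched another factor. Strength and width belong to the calls that chose the members and are given without a test.

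**Figure D1:**
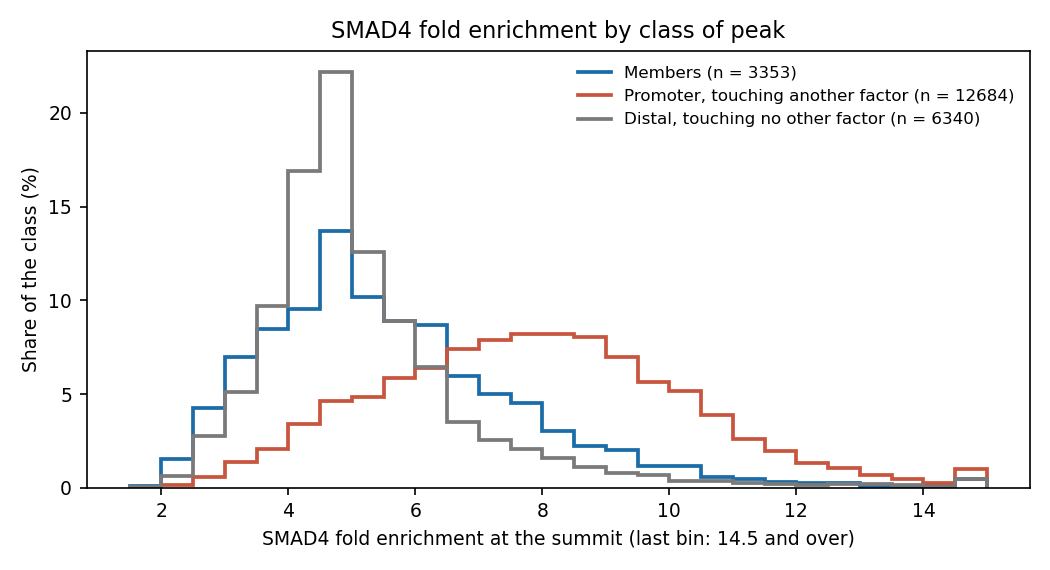
SMAD4 fold enrichment at the summit (x axis, bins of 0.5) against the share of each class in percent (y axis) for members, promoter peaks that touch another factor and distal peaks that touch none. Members have a median of 5.23 and an upper quartile of 6.73, distal peaks 4.83 and 5.76, and promoter peaks that touch another factor have a median of 7.82.

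The AP-1 motif was rarer at members than at the other promoter SMAD4 peaks pooled. TGACTCA or its reverse complement lay within 50 bp of the summit in 87 of 3353 members (2.59%, interval 2.11 to 3.19) and in 794 of 12684 promoter peaks that touched another factor (6.26%). The difference was -3.67 percentage points (Newcombe 95% interval -4.32 to -2.94). Among the classes of those peaks, DPF3a-only peaks held the motif most often (13.3%). Against peaks that touched both factors (3.21%) the difference was -0.62 points with an interval from -1.28 to 0.09, and p300-only peaks held fewer AP-1 motifs than members (0.252%, difference 2.34, interval 1.72 to 2.96). Distal SMAD4 peaks without another factor held the motif in 9.29%. At members the summit share was above that in windows of the same total length 500 bp to either side (0.925%), and windows at all transcript starts held it in 1.43%.

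The AP-1 difference from the other promoter SMAD4 peaks pooled was present in each type of window. Windows were called CpG-rich when their GC content was at least 50% and CG was at least 0.6 of its expected frequency. In CpG-rich windows 0.485% of members and 1.33% of the other promoter peaks held an AP-1 motif (difference -0.84, interval -1.19 to -0.38). In the remaining windows the shares were 5.97% and 16.9% (difference -11.0, interval -12.6 to -9.14). Among peaks of fold enrichment 5 to 8 in both classes, a comparison chosen after the data were seen, they were 2.34% of 1452 members and 6.35% of 5152 other peaks.

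SMAD boxes at members lay between the classes of other promoter SMAD4 peaks. The CAGAC box was within 50 bp of 21.0% of member summits and 2542 of 12684 other promoter summits (difference 0.93, interval -0.59 to 2.49), against 17.3% in the members' flanks and 31.2% at distal summits without another factor. By class, the CAGAC difference was -1.99 points against DPF3a-only peaks, 2.82 against p300-only peaks and 2.32 against peaks of all 3 factors, and each interval left out 0. GC-rich boxes were found at 59.4% of members, 62.8% of the other promoter peaks and 35.7% of the members' flanks. That difference of -3.34 points (interval -5.21 to -1.49) was -0.07 in CpG-rich windows, and it changed sign to 5.46 at fold enrichment 5 to 8 (interval 2.64 to 8.21). In the same order of classes the GC-rich difference was 14.1, -9.50 and -12.9 points, again with intervals that left out 0. The palindrome occurred in 5 members (0.149%) and in 16 other promoter peaks (0.126%). Those 5 lay at LDLRAD4 (fold enrichment 11.1), the lncRNA gene ENSG00000273069 (7.20), the histone demethylase gene KDM4C (6.46), the peroxidasin gene PXDN (6.41) and the integrin gene ITGB1 (6.31).

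CTCF motifs were rare and more frequent at members than at the other promoter SMAD4 peaks pooled. The motif of this insulator protein was found in 23 members (0.686%) and in 19 of the other promoter peaks (0.150%), a difference of 0.54 points (interval 0.29 to 0.88). Distal SMAD4 peaks without another factor held it in 2.02%, and 1 member had it in the flanks. The strongest CTCF-motif member lay in a coding exon of TPBGL, with a fold enrichment of 6.89. Against p300-only peaks alone the difference was 0.43 with an interval from -0.0217 to 0.81. With a score over 100 in the SMAD4 list the difference was 0.19, with that limit in all lists it was 0.13, and both intervals included 0. Differences were also called for YY1 (AANATGGCG, 1.07% of members and 1.62% of the others) and STAT (TTCCNGGAA, 0.119% and 0.434%), where 4 members held the STAT motif, although the interval included 0 for YY1 against DPF3a-only peaks and for STAT against peaks of all 3 factors. For the other 16 motifs searched the interval of the pooled difference included 0. Behind it the RUNX motif differed by class, by -2.09 points against DPF3a-only peaks, 1.46 against p300-only peaks and 0.93 against peaks of all 3 factors, with intervals that left out 0. Among them, ETS (CCGGAAGT) was at 1.31% of member summits and 0.119% of their flanks, the GC box (GGGCGGGG) at 8.98% and 4.24%, and the NRF1 motif at 1.58% and 0.239%. Windows at all transcript starts held the 3 motifs in 1.83%, 6.29% and 1.97%.

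**Figure D2:**
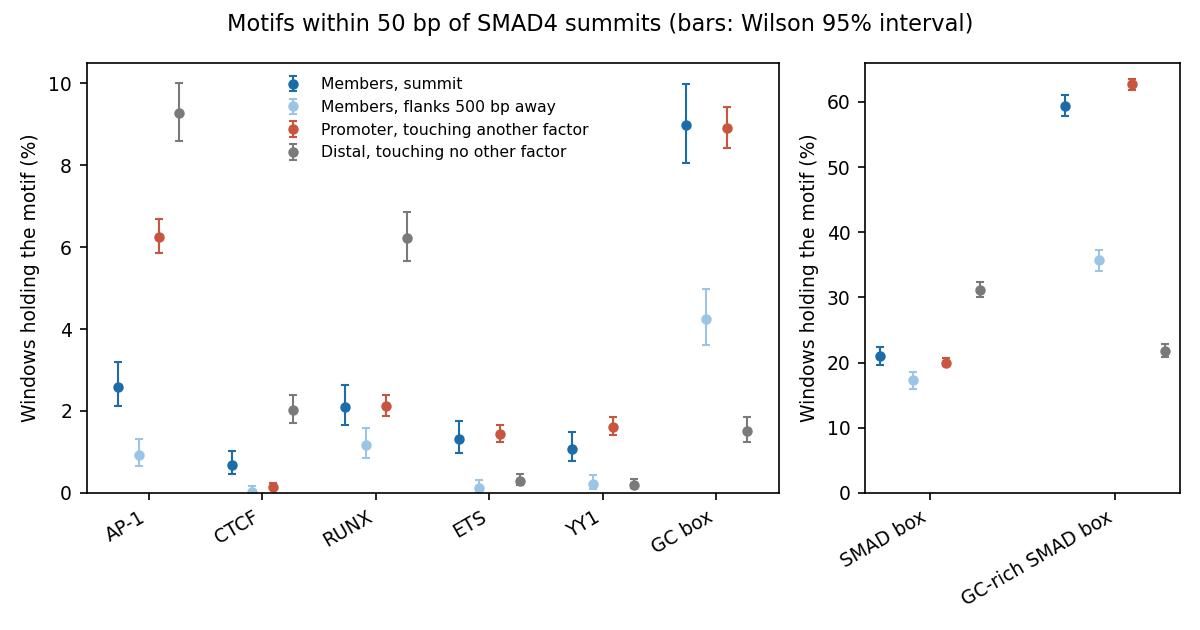
Share of windows holding each motif in percent (y axis, one scale per panel) at member summits, in the members' flanks 500 bp away, at promoter SMAD4 peaks that touch another factor and at distal peaks that touch none. Points are shares and bars are Wilson 95% intervals; AP-1 is at 2.59% of member summits and 6.26% of the other promoter summits, and GC-rich boxes are at 59.4% and 62.8%.

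Members were a mixture of CpG-rich and other promoters. The summit window was CpG-rich in 2063 members (61.5%, interval 59.9 to 63.2) and in 68.4% of the other promoter peaks, a difference of -6.85 points (interval -8.69 to -5.03). The direction depended on the strength of the peaks compared. At fold enrichment 5 to 8 members were CpG-rich more often (69.5% and 65.4%, difference 4.12, interval 1.38 to 6.78), and with a score over 100 in the SMAD4 list the difference was 1.52 (interval -0.57 to 3.55). Members fell between the classes they were compared with, above DPF3a-only peaks (42.9%) and below p300-only peaks (82.1%) and peaks of all 3 factors (81.2%), by 18.6, -20.6 and -19.6 points with intervals that left out 0. Distal peaks without another factor were CpG-rich in 12.4%. CpG-rich members had a canonical protein-coding start within 1000 bp in 73.8% and the others in 29.0%. The 2 types had median fold enrichments of 5.65 and 4.74.

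Members lay on the principal starts of genes less often than the other promoter peaks pooled, but more often than DPF3a-only peaks. The canonical start of a protein-coding gene was within 1000 bp of 56.6% of members and 68.9% of the other promoter SMAD4 peaks (difference -12.3 points, interval -14.2 to -10.4). Starts on both strands were near 19.2% of members and 28.6% of the others (difference -9.40, interval -10.9 to -7.83). Starts of other gene types only were near 17.9% and 13.7%, a difference of 4.17 points (interval 2.77 to 5.63) that turned to -6.88 when a score over 100 was asked of all lists. The summit was within 100 bp of the nearest start in 1689 members (50.4%) and in 57.4% of the others (difference -7.06, interval -8.96 to -5.16). Against DPF3a-only peaks all 4 differences had the opposite sign with intervals that left out 0, namely 12.6 points for canonical starts, 3.27 for both strands, -5.72 for starts of other gene types only and 6.75 for summits within 100 bp. Against p300-only peaks and peaks of all 3 factors the canonical start differences were -26.7 and -24.6. The nearest start belonged to a protein-coding gene for 2610 members, to a lncRNA for 606 and to a miRNA for 25.

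Members sat evenly about the start. The median distance from the nearest start was 2 bp downstream, with quartiles at 110 bp upstream and 90 bp downstream. Upstream summits made up 48.4% of members and 47.2% of the others (difference 1.27, interval -0.63 to 3.17). Exons held 50.2% and 54.4% of the summits (difference -4.17, interval -6.07 to -2.27), a difference that was -0.10 at fold enrichment 5 to 8. Coding exons held 9.72% and 9.97% (difference -0.24, interval -1.34 to 0.92). These pooled values join classes that differed from members in opposite directions, with intervals that left out 0. Against DPF3a-only peaks, p300-only peaks and peaks of all 3 factors, the differences were -4.63, 7.41 and 3.55 points for upstream summits. They were 9.26, -12.6 and -10.6 for exons and 3.39, -3.26 and -1.83 for coding exons.

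**Figure D3:**
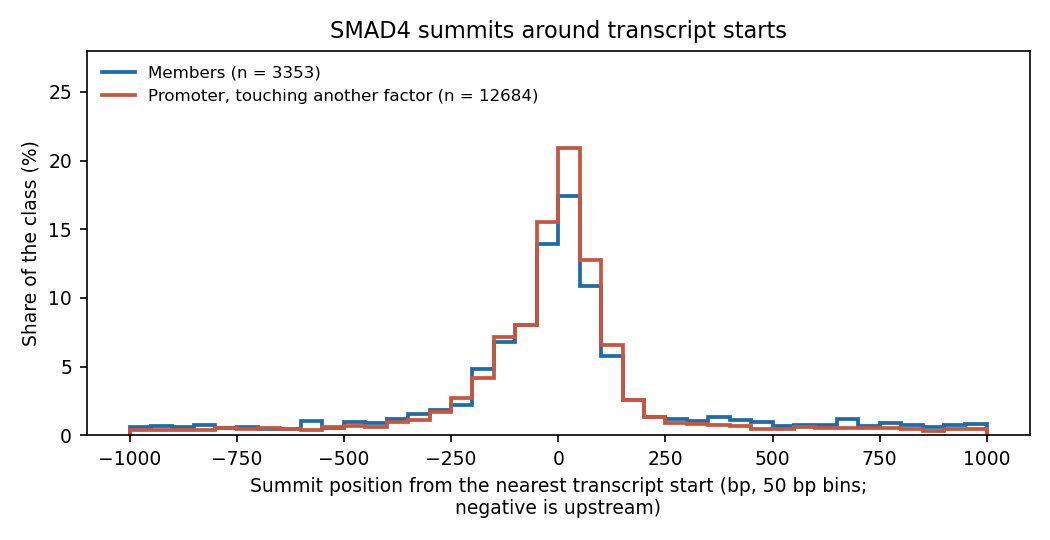
Summit position from the nearest transcript start in 50 bp bins (x axis, negative upstream) against the share of the class in percent (y axis), for members and for promoter SMAD4 peaks that touch another factor. Both classes centre on the start, with 50.4% of members and 57.4% of the others within 100 bp of it.

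The members of highest fold enrichment included genes of receptors and growth signalling and mostly lay away from canonical starts. The highest value, 24.7, was in an intron of NTRK2, the receptor for brain-derived neurotrophic factor, where 168 reads stood over a background of 5.84. ERBB4, a neuregulin receptor, followed at 21.1 with the summit in a coding exon. IDO1, a tryptophan-degrading enzyme, had 21.1 in an intron, at 129 bp upstream of a start. The member upstream of TRAC, the constant region of the T-cell receptor alpha chain, had 20.8 and 199 reads. A coding exon of MDM2, the ubiquitin ligase of p53, held a member of 19.7 whose nearest start was that of the lncRNA ENSG00000256325. PTPN11, a phosphatase of the RAS pathway, had 18.8 in a coding exon.

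The rest of the 10 highest lay in 3 genes. NRG1, a ligand of the ERBB receptors, had 2 members, at 18.5 and 18.2, and NF1, a RAS inhibitor, had 1 at 18.3 in an intron. The tenth, at 18 with 162 reads, lay in an intron of LDLRAD4 beside a start of ENSG00000267366. Of the 20 highest members 2 had a canonical protein-coding start within 1000 bp, and 52 of the 100 highest, against 56.6% of all members. The highest promoter peaks that touched another factor also lay away from such starts, with 5 of the 20 highest and 37 of the 100 highest near one, against 68.9% of all. A list of 147 cancer genes was written from general knowledge after these values had been seen. Summits of 60 of all 3353 members (1.79%) lay in its genes, and coding exons of those genes held 18 of all. As the list was written with the highest members in view, its share among them was partly fixed in advance and is not given. No comparison with other peaks is drawn from it. Why these sites were high was not tested.

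Genes with a member were then counted. A member lay within 1000 bp of a start of 2718 of 20046 protein-coding genes (13.6%), and a promoter SMAD4 peak that touched another factor at 10825 (54.0%). Both kinds were at 1004 genes, so 36.9% of the genes with a member also carried a touching one and 1714 genes had members only. The share depended on how many starts a gene has. It was 7.37% for genes with 1 or 2 distinct starts and 19.8% for those with 11 or more. The lists below are read against 13.6%, as counts with no test, and the median number of starts per gene is given for each list or as a range over several. Of the 22 lists, 18 lay above 13.6%, so a larger share does not set a list apart. The 20046 genes include many without any promoter SMAD4 peak, as 12539 had one.

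Targets of TGF-β signalling were among the lists with the largest share. Of 50 target genes, 20 (40%) had a member, with a median of 6.5 starts per listed gene against 5 for all protein-coding genes. A touching promoter peak was at 31 (62%), and 10 of the 20 genes with a member also had one. They included the feedback inhibitors SMAD7 (fold enrichment 3.0, 94 reads, 194 bp upstream of the start) and PMEPA1 (5.85, 242 reads, the highest pileup of all members). The growth arrest gene CDKN1A had 4.74. The helix-loop-helix inhibitors ID1, ID2 and ID3 had 4.45, 3.48 and 2.82, and the transcription factor gene JUNB had 3.63. MMP2, a gelatinase gene, had the highest value of the list, 9.55, and PDGFB, COL4A1 and HMGA2 had 5.21, 5.01 and 4.76. Touching promoter peaks at SMAD7, ID1, ID2 and ID3 reached 12.5, 2.92, 8.83 and 3.11, so that only the member at ID1 was the stronger. The other genes named here had no touching promoter peak.

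These target sites had many reads over a high background. The strongest member of each of the 20 genes had a median of 90.5 reads over a local background of 22.7 reads, against 35 and 5.36 reads over all members, and their median fold enrichment was 3.67. GC-rich SMAD boxes lay at 17 of the 20 summits, the CAGAC box at 5 and the AP-1 motif at 0. A DPF3a peak lay within 5000 bp of 16 of the 20 and a p300 peak of 11, against 39.1% and 16.4% of all members. With a gap of at least 500 bp to peaks of the other lists, 19 of the genes had a member, with a score over 100 in the SMAD4 list 16, and within 500 bp of a start 18, settings chosen after the data were seen.

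Among the pathway's own genes, touching promoter peaks were more common than members. Of 54 genes of ligands, receptors, SMADs and regulators (median of 6 starts), 13 (24.1%) had a member and 44 (81.5%) a touching promoter peak. LTBP1, which stores latent TGF-β in the matrix, had the strongest member, at 12.4 with AP-1 and CAGAC motifs, followed by the activin antagonist FST at 6.46. The ligands BMP6 and GDF15 had 5.34 and 4.79, the latent TGF-β binding proteins LTBP4 and LTBP2 had 4.79 and 4.50, and the activin receptor ACVR2B had 4.22. At SMAD3, which carries the TGF-β signal with SMAD4, the value was 3.81, and 3 touching promoter peaks also lay at its starts, the strongest at 8.70.

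HOX and renal lineage genes, which set positional and kidney identity, were also frequent. Of 39 HOX genes, with a median of 2 starts, 17 (43.6%) had a member, although neighbouring genes shared sites, so the strongest members numbered 15. The highest were HOXA7 at 6.18, HOXA6 at 4.76, the shared site of HOXC9 and HOXC6 at 4.75, HOXD3 at 4.31 and HOXB2 at 4.15. With a score over 100 in the SMAD4 list 10 HOX genes had a member. Of 23 renal lineage factors, with a median of 5 starts, 8 (34.8%) had a member. They included MITF (11.2), TFE3 (7.84), WT1 (6.40), SOX9 (4.69), PAX8 (4.13), EMX2 (4.02) and POU3F3 (3.37). A p300 peak lay 183264 bp from the member at POU3F3 and 2890 bp from that at WT1. Touching promoter peaks were at 17 HOX genes (43.6%) and 9 renal lineage factors (39.1%), against 54.0% of all protein-coding genes.

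SWI/SNF subunits, the family of DPF3, had a member at 8 of 28 genes (28.6%, median of 13 starts per gene). Among all genes with 11 or more starts the share was 19.8%. The DPF3 gene had 1 of 5.03 with 19 reads, 94 bp upstream of a start and 11877 bp from the nearest DPF3a peak. PBRM1, which is often mutated in clear cell carcinoma, had 12.5 in a coding exon. BICRA had 5.63, SMARCA2 had 4.71, SMARCD2 had 4.32 and BICRAL had 3.99. Of 31 hypoxia factors and targets (median of 10 starts), which VHL loss switches on in these tumours, 7 (22.6%) had a member. EPAS1, which encodes HIF-2α, had 6.19 with 94 reads and no touching promoter peak, and the glycolysis genes PFKFB3 and HK2 had 5.86 and 4.91. PFKFB4, ADM and SLC2A1 had 3.70, 2.66 and 2.47.

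Genes of growth, shape and adhesion lay between, in lists with medians of 1 (histones) to 16 (DNA repair) starts per gene. AP-1 and immediate early genes had a member at 7 of 26 (26.9%), with FOS at 6.69, DUSP5 at 5.01, MAFK at 4.67 and ZFP36 at 3.23. Factors and junction genes of the epithelial-mesenchymal transition had one at 6 of 24 (25%), with TCF4 at 8.33, TCF3 at 7.12 and CDH2 at 4.53. Integrins and cadherins had one at 12 of 49 (24.5%), led by ITGA2B at 7.92. Tubulins had one at 5 of 22 (22.7%), with TUBG2 at 7.88, and histones at 15 of 69 (21.7%), with H4C11 at 7.93. Cell cycle genes had one at 13 of 62 (21.0%), with POLD1 at 14.6, CCNE1 at 13.8 and MDM2 at 11.5. DNA repair genes had one at 9 of 55 (16.4%), with BRCA2 at 8.14, below the 19.8% of all genes with 11 or more starts. Metalloproteases and their inhibitors had one at 10 of 66 (15.2%), with TIMP2 at 8.76, and collagens and laminins at 8 of 56 (14.3%), with COL18A1 at 7.79.

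Among large families and housekeeping lists, all with medians of 5 to 8 starts, 4 lay below the share of all genes. Cytosolic ribosomal proteins had a member at 16 of 87 (18.4%), with RPL22 at 8.46 and RPL34 at 8.13, and none of the 16 genes also had a touching promoter peak. ZNF genes had one at 89 of 508 (17.5%), with ZNF530 at 10.8, and solute carriers at 47 of 337 (13.9%), with SLC25A20 at 12.6. Mitochondrial ribosomal proteins had one at 8 of 78 (10.3%), proteasome subunits at 4 of 43 (9.30%), splicing factors at 4 of 47 (8.51%) and respiratory chain subunits at 7 of 83 (8.43%). These 4 lists had touching promoter peaks at 79.1% to 87.2% of their genes. Their strongest members lay at MRPS10 (8.81), PSMA6 (6.99), HNRNPC (6.90) and NDUFS4 (9.39).

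**Figure D4:**
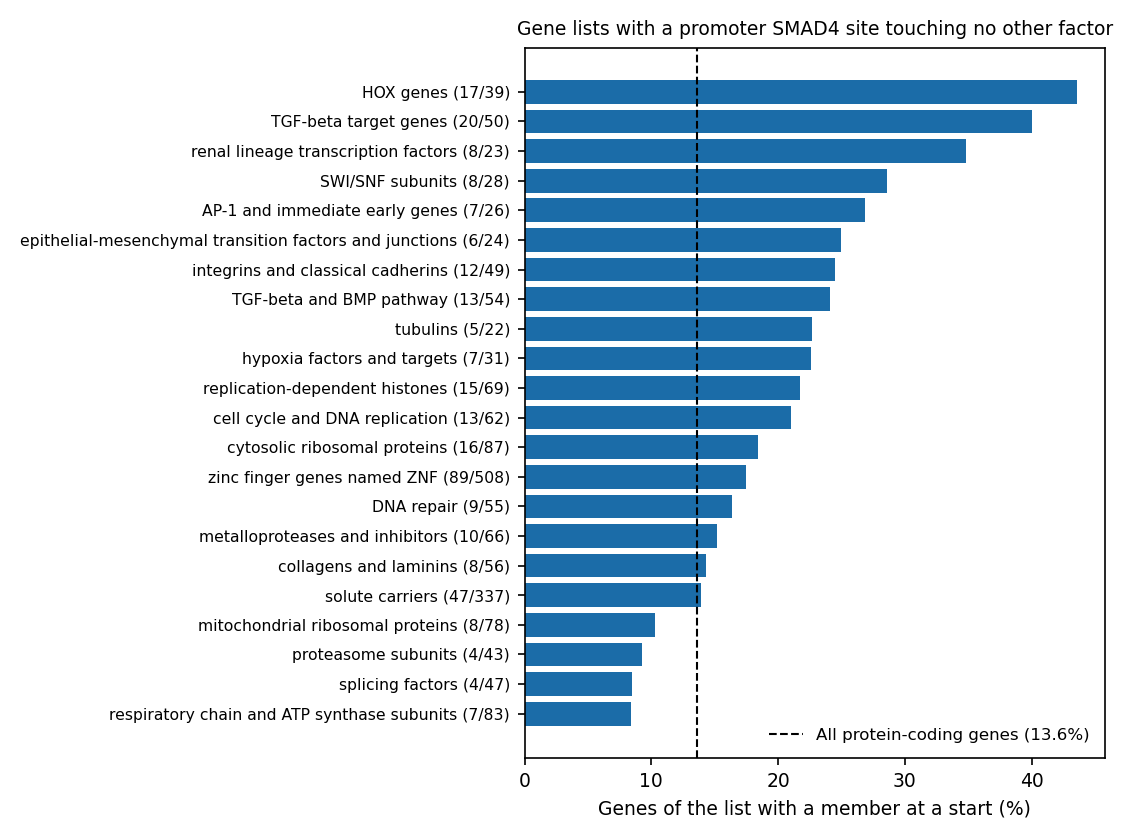
Share of the genes of each list with a member at a start in percent (x axis), with counts beside the list names. The dashed line is the 13.6% of all protein-coding genes; HOX genes (43.6%) and TGF-β target genes (40%) have the longest bars.

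Most genes with a member had 1, and 31 had 3 or more. PLEC, which encodes the cytoskeletal linker plectin, had 5 members, with fold enrichments from 2.06 to 3.50. BRCA1, DENND2B, SH3BP2 and ZNF423 had 4 each, and the strongest among them was at DENND2B (9.55). Others with 3 were NTRK3 (up to 15.7), NFIB (up to 13.0), the glucocorticoid-induced gene TSC22D3 (up to 8.14), the Wnt-responsive factor LEF1 (up to 5.36), ZEB2 (up to 3.72), KDM6B (up to 3.45) and the protease gene FURIN (up to 4.40). Members lay nearer to another SMAD4 peak than the other promoter peaks did, with median gaps of 6027 bp and 12007 bp, and 21.9% and 10.5% had 1 within 1000 bp.

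Members were unevenly spread over chromosomes. The share of promoter SMAD4 peaks that were members was highest on chromosome X (38.3%, interval 33.9 to 42.9), followed by chromosomes 14 (32.6%), 19 (30.7%) and 22 (29.4%), leaving aside the 9 peaks on Y. It was lowest on chromosomes 21 (13.8%) and 5 (15.3%). Chromosome X held 4.98% of members and 2.12% of the other promoter peaks, a difference of 2.86 points (interval 2.12 to 3.68). For chromosome 14 the difference was 2.15 points (interval 1.42 to 2.96) and for chromosome 19 it was 3.91 (interval 2.87 to 5.03). The interval left out 0 for 17 chromosomes, and for 9 among peaks of fold enrichment 5 to 8, where 14, 19, 22 and X remained higher. Chromosome X held 2.72% of SMAD4 promoter peaks, 1.82% of those of DPF3a and 1.79% of those of p300, and chromosome 14 held 3.04%, 2.36% and 1.94%. The part of such differences between lists was not tested.

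**Figure D5:**
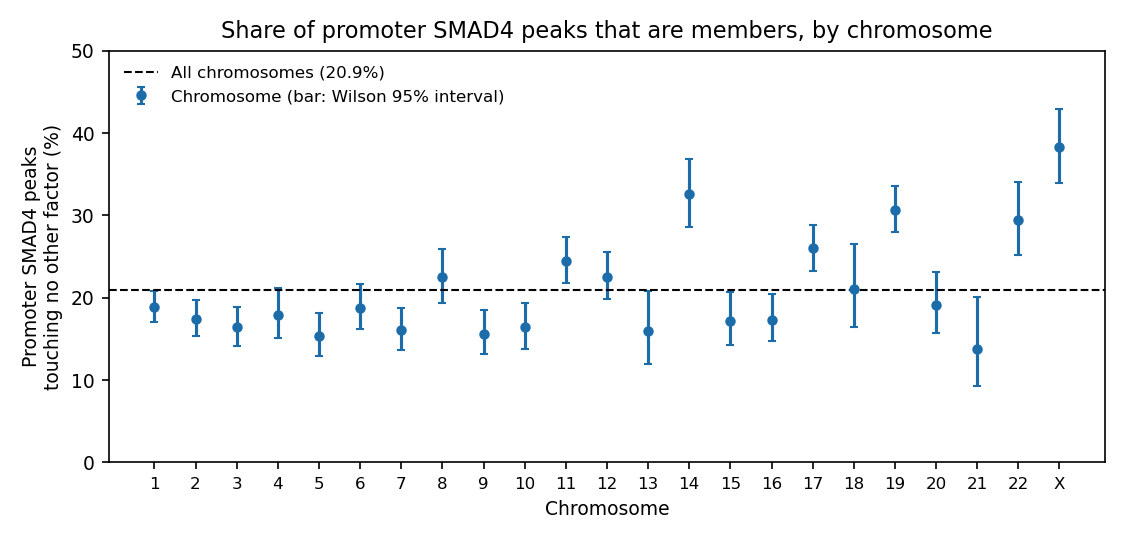
Share of promoter SMAD4 peaks that touch no other factor in percent (y axis) for each chromosome (x axis), with Wilson 95% intervals as bars. The dashed line is 20.9% over all chromosomes. X (38.3%), 14, 19, 22, 17 (26.0%) and 11 (24.5%) lie above it with intervals that leave it out.

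Most members were far from peaks of the other lists. The median gap was 8071 bp to the nearest DPF3a peak (quartiles 2399 and 22984) and 28824 bp to the nearest p300 peak (quartiles 9536 and 76092). A DPF3a peak lay within 1000 bp of 428 members (12.8%) and a p300 peak within 1000 bp of 228 (6.80%). More than 5000 bp from both lists were 1922 members (57.3%), with a median fold enrichment of 5.89. In the gene body or the 5000 bp upstream, 67.2% of genes with a member held a DPF3a summit and 38.9% a p300 summit, against 65.8% and 51.5% of all protein-coding genes. The rule, which asks for no such peak at the member itself, bears on these shares.

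The limits of the rule are shown by single sites. The member nearest to a DPF3a peak, with 11 bp between them, had a fold enrichment of 11.9. It lay in an intron of CD274, which encodes the immune checkpoint ligand PD-L1, 120 bp upstream of a start of that gene. The member next to ENSG00000286863 abutted a p300 peak without overlap, with a fold enrichment of 6.64. The smallest overlap that kept a promoter peak out was 9 bp, at ARHGEF12 (3.24), and 3 peaks were kept out by 20 bp or less. At the promoter limit, a summit 999 bp from a start of ADGRB2 (4.51) was a member and a summit 1002 bp from a start of BNC2 (4.69) was not.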

How the data were processed

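ChIP-seq peak lists of HA-DPF3a, SMAD4 and p300 were analysed, 1 list for each 2 libraries, grouped by the factor in the titles. Per the study's methods and the submitters' processing notes, the authors trimmed reads with cutadapt, mapped them to hg38 with Bowtie2 2.3.5.1, dropped poorly mapped and mitochondrial reads and Picard duplicates, called peaks with MACS2 2.2.5 and kept scores over 50. No control library is named. The deposited score follows the −log10 q, the fold enrichment that the authors deposited is the ratio of pileup to local background, and −log10 p and −log10 q were also deposited. Library depth is not given, and summit heights were recovered from the fold enrichment and −log10 p to within 0.000860 of the deposited −log10 p.

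The members and lists were chosen with earlier results of these data known. Overlaps, starts (GENCODE 44), exact motif matches on both strands and CpG content were computed with Python 3.11.15, scipy 1.17.1 and pysam 0.24.0, and checked against bedtools 2.31.1 and on simulated data. Motifs may overlap each other, as GGCGC and the GC box can. Sequences come from hg38. Shares have Wilson intervals, differences Newcombe intervals, and a difference is called where its interval leaves out 0. Genes were named by rule: the 10 highest members, up to 6 per list, the highest member with a motif, genes with 3 or more members, and sites at the limits of the rule. Some genes and sites that the rule names are not reported here. Examples within these groups, and the list of cancer genes, were picked after their values were seen. Alternatives were other score limits, promoter widths, starts, overlaps, regions and windows.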

Additional observations from a re-analysis of the deposited data

How the results depend on the processing

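Each list pools both libraries of a factor and the intervals cover counting error over peaks only, so no statement here carries replicate error. No paired analysis was possible because replicates are pooled in every list, which also prevents leaving 1 of them out. A local background with no control library and the score thresholds of the DPF3a and p300 lists limit which SMAD4 peaks count as free of another factor.

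Against the other promoter SMAD4 peaks pooled, the lower AP-1 share of members kept its sign and its side of 0 under all alternatives run. The alternatives were not run by class. With the main settings the difference was 2.34 points against p300-only peaks, and its interval included 0 against peaks of all 3 factors. The count of members was 2075 with a score over 100 in the SMAD4 list only, 7255 with that limit in all lists and 5069 with a reciprocal overlap of 0.5, and the other alternatives kept it within 1.5 times of the main count. As a share of promoter SMAD4 peaks that made 15.0%, 52.5% and 31.6%. The share was 20% within 500 bp of starts and also from 1000 bp upstream to 100 bp downstream, 20.1% with protein-coding starts only and 19.2% with a gap of at least 500 bp. In the order of the first 3 settings the median fold enrichment was 6.32, 7.23 and 5.58, and the share of protein-coding genes with a member was 9.59%, 35.1% and 21.0%. The median was 5.41 within 500 bp of starts, 5.33 with the asymmetric promoter and 5.31 with the gap of 500 bp, and the gene share was 12.0%, 11.4% and 12.5%. Without coding-exon summits the gene share was 12.1%. Strength given as −log10 q had a median of 12.8.

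Differences between members and the other promoter SMAD4 peaks changed sign under some settings, in percentage points. The CpG-rich difference was 1.52 with a score over 100 in the SMAD4 list, 16.0 with that limit in all lists and 4.12 at fold enrichment 5 to 8. The GC-rich SMAD box difference was 2.70, 10.1 and 5.46 under the same 3 settings and 1.75 in windows that were not CpG-rich. The difference in starts of other gene types was 0.98 and -6.88 under the first 2. That in upstream summits was -0.0242 and -2.71 under them, -0.0574 with protein-coding starts only and 4.82 with the asymmetric promoter, where it was called. At fold enrichment 5 to 8, which was chosen after the data were seen, the exon difference was -0.10, the coding-exon difference 0.84, and 9 chromosomes were called. Apart from AP-1, 4 motifs were called with the main settings, 10 with scores over 100 in all lists, 2 with the reciprocal overlap and 7 in windows of 100 bp on either side. Asking a score over 100 of all lists removes peaks of DPF3a and p300 as well, so that peaks move into the members by construction. Otherwise the cause was not tested.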
